A study of Mus musculus with 16 samples.

Results

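The 10 genes described here encode the transcription factor NRF2 (Nfe2l2) and 9 of its antioxidant target genes: Gclc, Gclm, Gsr, Slc7a11, Txnrd1, Srxn1, Prdx1, Nqo1 and Hmox1. They were chosen by symbol, and each symbol corresponded to 1 gene identifier among the 55487 in the count file. All 10 were among the 24971 genes tested, which held 10 or more counts over the 16 libraries, and the fewest counts of any of them in a library were 151 (Nqo1).

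RNA was sequenced from mouse heart slices in culture, to ask how loss of the long noncoding RNA Swhtr alters the response of heart tissue to low oxygen. Swhtr null slices came from mice with a transcriptional stop signal on both alleles (Swhtr3xpA/3xpA), and WT slices from C57Bl6/J mice. Treated slices spent 7 days at 3% oxygen and then 7 days at 21% oxygen, whereas untreated slices spent 14 days at 21% oxygen. The mice of all 4 groups (Swhtr null treated, Swhtr null untreated, WT treated and WT untreated) were 8 weeks old, and all slices were collected at the end of the culture, so treated slices were back at 21% oxygen when RNA was taken. Each group had 4 libraries of 17830351 to 29941903 counts. The stop signal is present in every cell of the animal and throughout life. The slices came from 4 male mice per genotype, so several libraries shared a mouse, and which ones is not stated.

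The labelled tissue is heart, but defining transcripts of heart muscle cells were nearly absent from all 16 libraries. The 10 cardiomyocyte markers (such as Myh6, Tnnt2 and Ttn) summed to between 6.98 and 99.9 CPM (counts relative to the library's total, scaled with TMM factors), and the 10 fibroblast markers to between 23620 and 33730 CPM. Nppa and Pln were at 0 in at least 1 library each, but 61.5% and 64.7% of their exon bases are shared with other genes. For Myh6, Tnnt2 and Ttn the shared parts are 1.7%, 0% and 0.4%. The part of shared bases in these low counts was not tested. Macrophage markers (12 genes) were also abundant, at 4092 to 13130 CPM in sum. In bulk RNA, fewer cells of a type and less RNA per cell cannot be told apart.

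NRF2 is held at a low level in unstressed cells, where the adaptor KEAP1 marks it for degradation. Oxidants and electrophiles modify KEAP1, and NRF2 then accumulates, pairs with a small MAF protein and binds antioxidant response elements in its target genes. The regulation lies mainly in the stability of the protein, so the transcripts of the target genes, more than that of Nfe2l2, are commonly read as its activity. In the heart the pathway is known for its part in limiting oxidative damage when oxygen returns after a shortage.

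Of the 10 genes, 7 had a RefSeq promoter window (GRCm38.p6, 250 bases before to 50 bases after the transcription start), and these were searched on both strands for the core of the antioxidant response element, TGACNNNGC. The core was present in the windows of Nfe2l2, Gclm, Txnrd1, Srxn1 and Prdx1, and its letters were not in those of Nqo1 and Slc7a11. Txnrd1 had 3 windows with 1 match among them, and each of the other genes had 1 window. Among all genes with a window, 14% had the core. The matches are shown to set the factor's recognition letters beside the genes whose levels follow. Each is written 5′ to 3′ on the minus strand with 9 bases on each side, and the capitals mark the core.
Nfe2l2, chr2:75704886-75704912 (-): cagcccaccTGACTCCGCcatgccccg
Gclm, chr3:122245414-122245440 (-): cgtgagagtTGACGGTGCgcccgggag
Txnrd1, chr10:82859105-82859131 (-): gtgtcagaaTGACAAAGCaaaaatcca
Srxn1, chr2:152105543-152105569 (-): gtctcactcTGACCTAGCtgcccactg
Prdx1, chr4:116685457-116685483 (-): tacgggggaTGACTCAGCgctttccct
The site in Srxn1 lies after the transcription start, and the others lie before it. That of Txnrd1 lies before the start of 1 of its 3 windows, inside the annotated gene. A match is a description of the letters and does not show that NRF2 binds there.

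All 10 genes were transcribed in every library, over a wide range of levels. Per kilobase of exon, Hmox1 (heme oxygenase, which breaks down heme to biliverdin, iron and carbon monoxide) was at the top with a median of 873 CPM per kb over the 16 libraries, and Prdx1 (a peroxiredoxin that reduces hydrogen peroxide) followed at 626 CPM per kb. Srxn1 (sulfiredoxin, which restores overoxidized peroxiredoxins) had a median of 63.4 CPM per kb, Nfe2l2 itself 46.4 CPM per kb and Txnrd1 (cytosolic thioredoxin reductase) 41.4 CPM per kb. The glutathione enzymes were lower. Gsr (glutathione reductase) had 24.4 CPM per kb, Gclm (the modifier subunit of glutamate-cysteine ligase) 23.8 CPM per kb and Gclc (the catalytic subunit of that enzyme) 15.4 CPM per kb. Nqo1 (a quinone reductase) had 7.20 CPM per kb, and Slc7a11 (the cystine importer) was at the bottom with 1.81 CPM per kb. The order held in all 16 libraries for 7 of the 9 pairs of neighbours. The exceptions were Nfe2l2 over Txnrd1, in 14 of 16 libraries, and Gsr over Gclm, in 7 of 16. Gsr and Gclm thus had no fixed order. The length used counts every annotated exon base of a gene, and the order in CPM without it was different. The medians of Prdx1 (1904 CPM) and Slc7a11 (25.15 CPM) were then above those of Hmox1 (1528 CPM) and Nqo1 (11.18 CPM).

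Nfe2l2 was the steadiest of the 10 over the 16 libraries, with a coefficient of variation of 6.77%, and Nqo1 the most variable, at 34.4%. The ratio of the 2 subunits of glutamate-cysteine ligase, Gclm over Gclc in CPM per kb, lay between 1.12 and 1.90 in single libraries. It was 1.44 ± 0.25 in Swhtr null treated slices and 1.74 ± 0.08 in Swhtr null untreated slices, and it was 1.62 ± 0.22 in WT treated slices and 1.71 ± 0.19 in WT untreated slices (SD, n = 4 each).

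**Figure D1:**
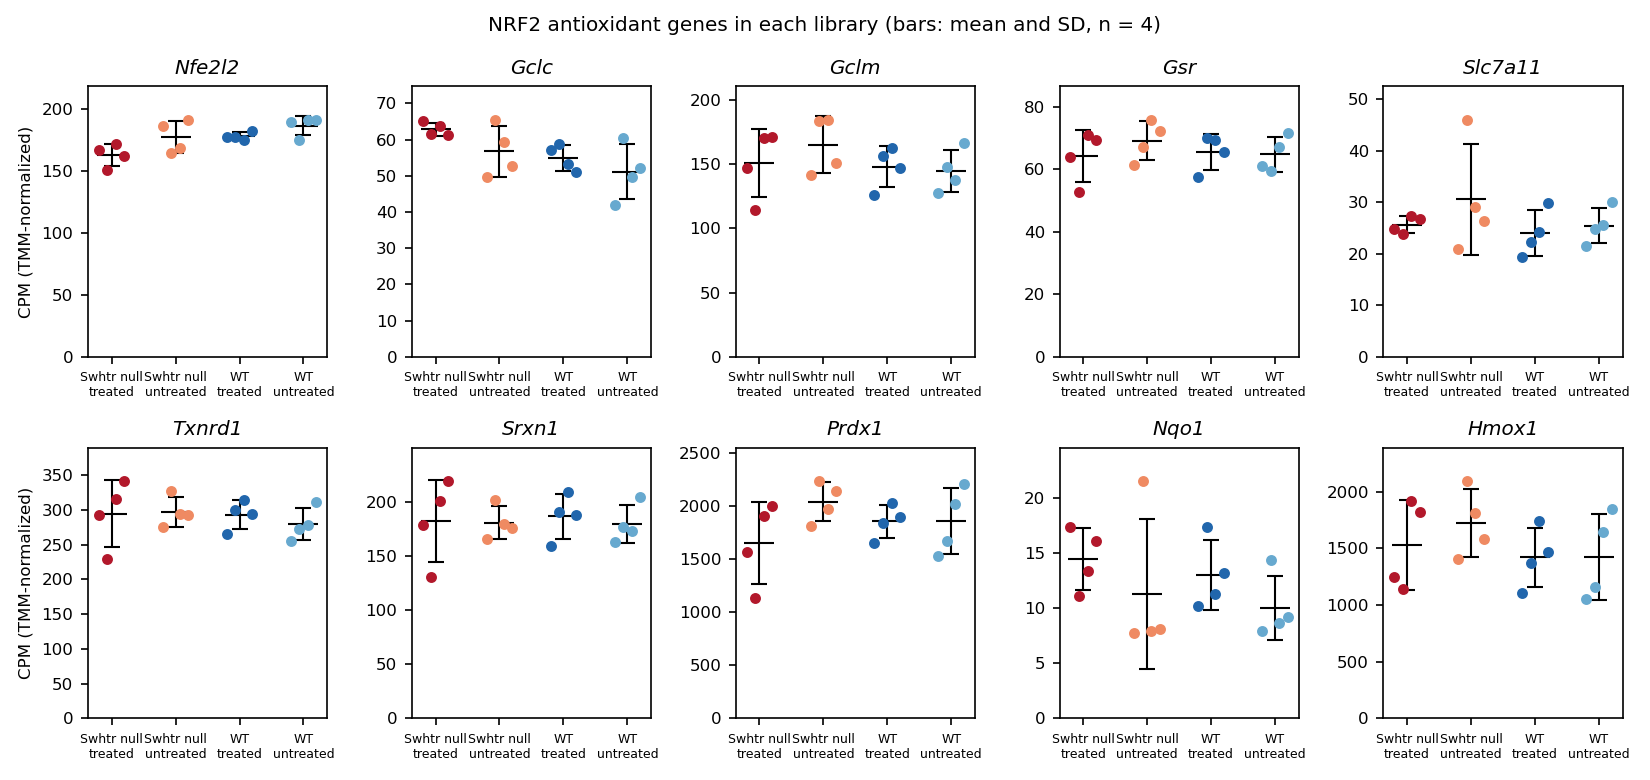
Level of each of the 10 genes in CPM (vertical axes, linear from 0) in the 4 libraries of each group (points, in order of replicate number), with the mean and SD as bars. The groups overlapped for each gene between treated and untreated slices, and the point of Nqo1 at 21.5 CPM in Swhtr null untreated slices stands above the other 3 of its group.

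The first comparison asked whether the treatment left a mark on these genes in Swhtr null slices. None of the 10 was called changed. A gene was called when edgeR's quasi-likelihood test gave an adjusted p below 0.05 and a log2 fold change beyond 0.58 either way, which is 1.5-fold. Of all genes tested 0.621% were called in this comparison, so 0 of 10 does not set these genes apart. None of the 10 passed at an unadjusted p under 0.05 in edgeR, where 16.5% of all genes did and 26.8% of those with a mean above 10 CPM, as all of the 10 have. DESeq2 (1.84% of all genes called) and limma (0.897%) also called 0 of the 10, and each had 2 of them at an unadjusted p under 0.05. The fit that paired libraries of the same number within genotype called 616 genes in all (2.47%), against 155 without it, and again 0 of the 10. Values were lower in treated slices for 7 of the 10 genes (6 without normalization factors, where Txnrd1 was at 0.015), with a median log2 fold change of -0.115 over the 10 and 0.01 over all genes tested. With limma's quality weights this median was -0.016, and without Swhtr null untreated replicate 2 it was -0.026 in edgeR, with 5 genes lower and 5 higher.

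Nfe2l2 was at 166.9, 150.7, 171.8 and 162.2 CPM in Swhtr null treated slices, against 186.3, 164.8, 168.3 and 191.1 CPM in Swhtr null untreated slices. Only 2 of the 4 treated libraries lay below the lowest untreated one, so the groups overlapped. The log2 fold change was -0.13 ± 0.06 (SE; adjusted p = 0.31, edgeR), the smallest adjusted p among the 10 genes.

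The glutathione arm showed no common direction. Gclc was at 65.0, 61.5, 63.8 and 61.3 CPM in Swhtr null treated slices, against 49.6, 65.5, 59.3 and 52.7 CPM in Swhtr null untreated slices. The treated libraries were close together inside the wide range of the untreated ones, and the log2 fold change was 0.15 ± 0.09 (SE; adjusted p = 0.45, edgeR). Gclm ranged between 114.5 and 171.4 CPM in treated slices and between 141.7 and 184.6 CPM in untreated slices, with a log2 fold change of -0.13 ± 0.13. Gsr ranged between 52.7 and 71.1 CPM in treated slices and between 61.5 and 75.9 CPM in untreated slices, with a log2 fold change of -0.10 ± 0.09. For each of these genes the range of the treated slices overlapped that of the untreated ones. Slc7a11 was at 24.8, 23.7, 27.4 and 26.7 CPM in Swhtr null treated slices, against 20.9, 46.0, 29.0 and 26.4 CPM in Swhtr null untreated slices. The treated libraries lay within the range of the untreated ones, whose replicate 2 was the highest of all 16 libraries. Its log2 fold change was -0.25 ± 0.20 (SE; adjusted p = 0.58, edgeR), and without that library it was 0.015.

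In the thioredoxin and peroxiredoxin arm, Prdx1 had the largest negative value. It was at 1573, 1137, 1907 and 2000 CPM in Swhtr null treated slices, against 1817, 2235, 1973 and 2144 CPM in Swhtr null untreated slices. Prdx1 was lower in treated slices in 4 of the 4 pairs of equal replicate number, although whether the numbers pair these libraries is not settled. The share of all genes with 4 of 4 pairs in the same direction was not computed. Of the 4 treated libraries, 2 lay below every untreated one. The log2 fold change was -0.30 ± 0.15 (SE; adjusted p = 0.34, edgeR). Txnrd1 and Srxn1 were level, with log2 fold changes of -0.01 ± 0.10 and 0.01 ± 0.13 (SE). For both, the lowest and the highest of these 8 libraries were treated ones. Txnrd1 was between 229.8 and 341.4 CPM in treated slices and between 275.5 and 326.9 CPM in untreated slices, and Srxn1 was between 130.6 and 218.6 CPM in treated slices and between 165.7 and 201.3 CPM in untreated slices.

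Among the detoxifying enzymes, Nqo1 had the largest positive value. It was at 17.4, 11.1, 13.3 and 16.03 CPM in Swhtr null treated slices, against 7.72, 21.5, 7.93 and 8.05 CPM in Swhtr null untreated slices. All 4 treated libraries were above 3 of the untreated ones, and the remaining untreated library, replicate 2, was above all of the treated ones. The log2 fold change was 0.36 ± 0.33 (SE; adjusted p = 0.64, edgeR). Without Swhtr null untreated replicate 2 it was 0.87 with an adjusted p of 0.027, and Nqo1 was then the only one of the 10 genes called, where 2.33% of all genes tested were called. Hmox1 was at 1245, 1138, 1919 and 1823 CPM in Swhtr null treated slices, against 1406, 2093, 1815 and 1588 CPM in Swhtr null untreated slices. The treated libraries formed a low and a high pair around most of the untreated ones, and the log2 fold change was -0.17 ± 0.22 (SE; adjusted p = 0.76, edgeR).

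Markers of macrophages, cells that carry much Hmox1 and Prdx1, were lower in Swhtr null treated slices for 12 of the 12 genes listed, and none of the 12 was called. Their summed level was 4092 to 10310 CPM in Swhtr null treated slices and 8119 to 13130 CPM in Swhtr null untreated slices, and Cd163 was near 0 in every library (at most 1.10 CPM). The lowest sum was that of treated replicate 2, which also had the lowest level in its group for 9 of the 10 NRF2 genes. Without that library the median log2 fold change of the 10 genes was -0.02, with 6 lower and 4 higher, and Prdx1 was at -0.16. Fibroblast markers were higher in Swhtr null treated slices for 9 of the 10 genes listed. Of the 10, 1 was called, where 0.621% of all genes tested were called. Their sum was 25650 to 33730 CPM in Swhtr null treated slices against 23620 to 28170 CPM in Swhtr null untreated slices. Smooth muscle and pericyte markers were higher for 8 of 8 genes, at 867 to 1142 CPM in treated and 627.3 to 869.3 CPM in untreated slices, and cardiomyocyte markers for 10 of 10, at 10.9 to 99.9 CPM in treated and 6.98 to 12.4 CPM in untreated slices. In edgeR 0 were called in either list. Endothelial markers were higher for 7 of 8 genes, at 1317 to 2103 CPM in treated and 1220 to 1537 CPM in untreated slices. Of these 0 were called, and 1 passed the adjusted p alone, as 2.18% of all genes tested did. An unadjusted p under 0.05 was held by 4 of the 12 macrophage, 3 of the 10 fibroblast and 3 of the 8 endothelial markers. The same was true of 2 of the 8 smooth muscle and pericyte markers, 7 of the 10 cardiomyocyte markers and 16.5% of all genes tested. The part of these marker lists in the values of the 10 genes, and of Sod3 and the other genes described further on, was not tested.

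**Figure D2:**
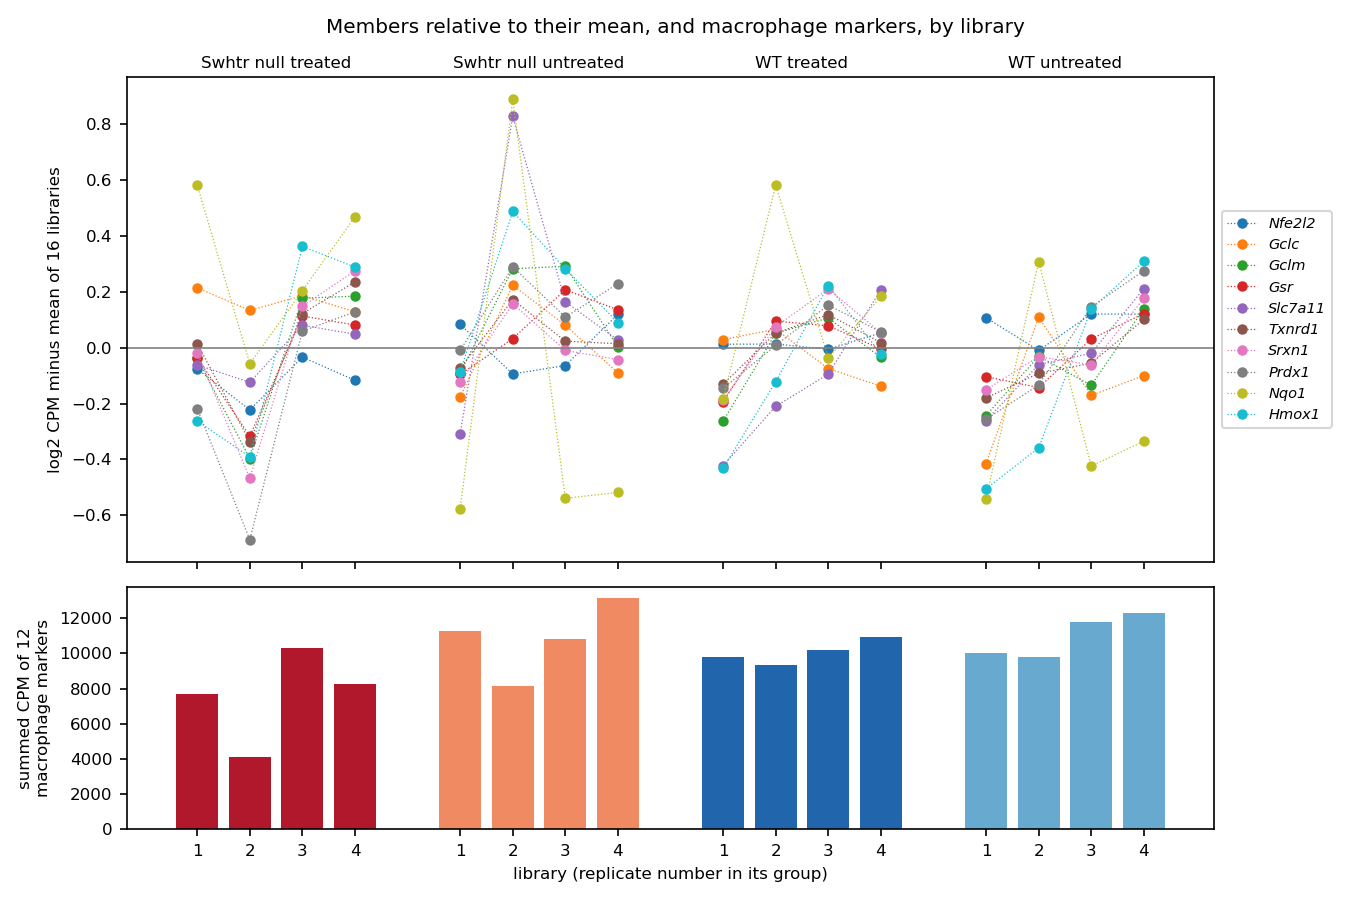
Upper panel, log2 CPM of each of the 10 genes minus its mean over the 16 libraries; lower panel, summed CPM of 12 macrophage markers, with libraries along the horizontal axis by group and replicate number. Swhtr null treated replicate 2 is low for most of the 10 genes and has the lowest macrophage sum (4092 CPM), and Nqo1 stands far up in Swhtr null untreated replicate 2.

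Several libraries were low or high for most of the 10 genes at the same time. Swhtr null treated replicate 2 and Swhtr null untreated replicate 1 each had the lowest level of their group for 9 of the 10 genes. WT treated replicate 1 and WT untreated replicate 1 each had the lowest for 8, and WT untreated replicate 4 had the highest for 8. Beside these stand the depth and the macrophage sum of each library. Swhtr null treated replicate 2 held 26044758 counts, with the lowest macrophage sum of all (4092 CPM). Swhtr null untreated replicate 1 had a macrophage sum of 11290 CPM, and replicate 2 of that group, the highest for 7 genes, had 17830351 counts and 8119 CPM, the lowest of its group in both. WT untreated replicate 4 had the highest macrophage sum of its group, at 12300 CPM. The part of depth and of macrophage markers in these values was not tested.

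The second comparison asked the same of WT slices. edgeR, DESeq2 and limma called 0 of the 10 genes, edgeR called 0% of all genes tested, and at an unadjusted p under 0.05 each of the 3 tools found 0 of the 10 (4.81% of all genes in edgeR). The log2 fold changes lay between -0.09 (Slc7a11) and 0.38 (Nqo1), with a median of 0.03 over the 10 genes and 0.01 over all genes tested. Nqo1 was at 10.2, 17.4, 11.3 and 13.1 CPM in WT treated slices, against 7.92, 14.3, 8.60 and 9.15 CPM in WT untreated slices. It was higher in the treated library in 4 of the 4 pairs of equal number, although whether WT numbers pair the libraries is not settled. The share of all genes with 4 of 4 pairs in the same direction was not computed. The groups overlapped because untreated replicate 2 was above 3 of the treated libraries. Its log2 fold change was 0.38 ± 0.33 (SE; adjusted p = 1, edgeR), with a 95% interval of -0.34 to 1.10. Hmox1 was at 1107, 1372, 1742 and 1469 CPM in WT treated slices, against 1052, 1164, 1643 and 1850 CPM in WT untreated slices. Its 2 groups covered nearly the same range, and the log2 fold change was -0.01 ± 0.22 (SE). Prdx1 likewise had a log2 fold change of 0.00 ± 0.15 (SE), with 1653 to 2033 CPM in WT treated slices and 1532 to 2214 CPM in WT untreated slices.

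The 95% intervals give the size of change that these libraries leave room for. In Swhtr null slices the interval lay within 0.58 either way for 6 of the 10 genes, and the exceptions were Nqo1, Slc7a11, Prdx1 and Hmox1. In WT slices it did so for 9 of the 10, and Nqo1 was the exception. Over all genes tested the intervals of 37.5% lay within these bounds in Swhtr null slices, and those of 43% in WT slices. For the 9747 genes with a mean above 10 CPM, a level that all of the 10 genes reach, the shares were 82% in Swhtr null slices and 91.7% in WT slices. A change of 1.5-fold in Nfe2l2, Gclc, Gclm, Gsr, Txnrd1 or Srxn1 thus lay outside the intervals in both genotypes.

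**Figure D3:**
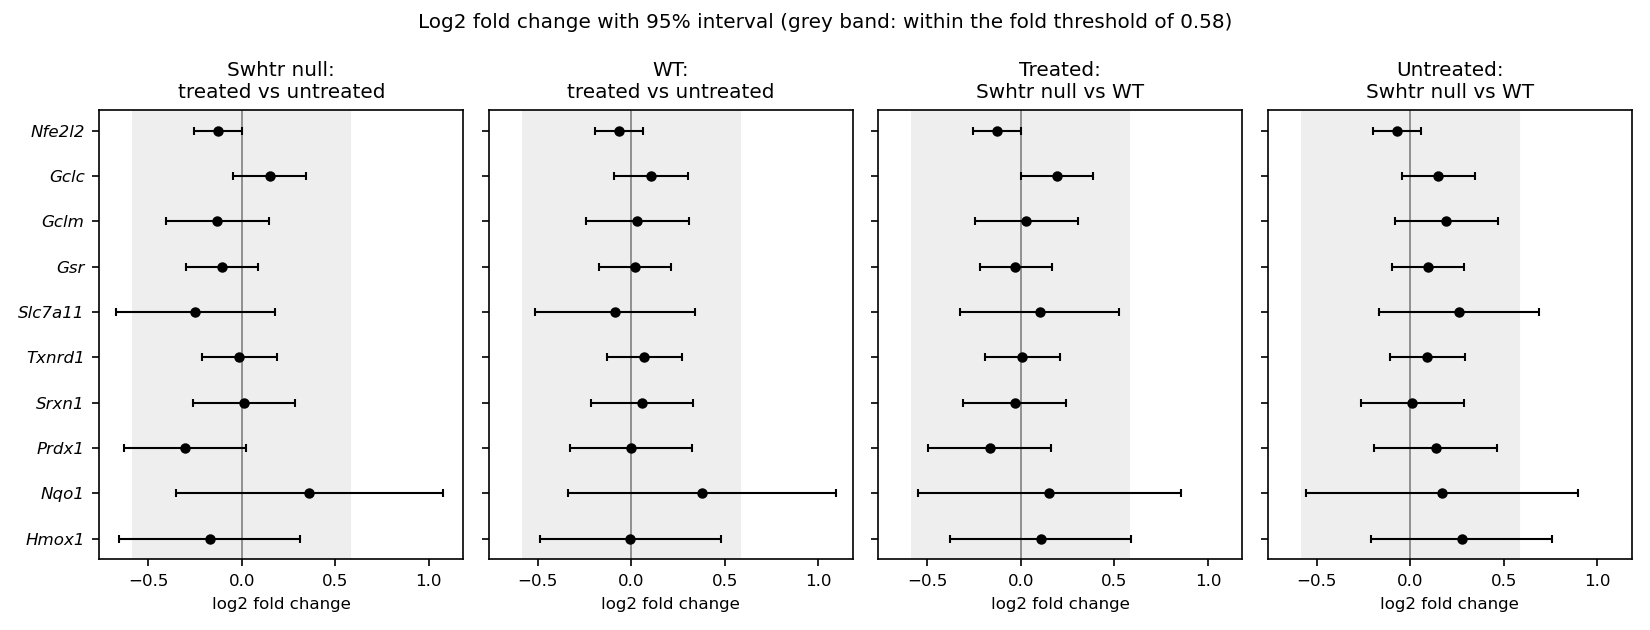
Log2 fold change (points) with its 95% interval (bars, edgeR) of the 10 genes in 4 comparisons, with the grey band marking values within 0.58 either way. The intervals of Nfe2l2 and Gclc are among the narrowest and that of Nqo1 is the widest in each panel.

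Swhtr null slices were then set against WT slices of the same treatment. In treated slices 0 of the 10 genes were called by edgeR, DESeq2 or limma (0.0921% of all genes tested in edgeR), and 1 of the 10 had an unadjusted p under 0.05 in each tool (6.25% of all genes in edgeR). In edgeR this was Nfe2l2, at 166.9, 150.7, 171.8 and 162.2 CPM in Swhtr null treated slices and at 177.4, 177.5, 175.2 and 182.5 CPM in WT treated slices. Every Swhtr null library was below every WT library, and the log2 fold change was small, at -0.13 ± 0.06 (SE; unadjusted p = 0.049, adjusted p = 0.77, edgeR). Gclc also had groups that did not overlap, in the other direction. It was at 65.0, 61.5, 63.8 and 61.3 CPM in Swhtr null treated slices and at 57.2, 58.7, 53.2 and 50.9 CPM in WT treated slices, with a log2 fold change of 0.19 ± 0.09 (SE; adjusted p = 0.77, edgeR). Such groups without overlap made up 4.06% of all genes tested (2.36% lower and 1.7% higher in Swhtr null slices) and 5.63% of those above 10 CPM. The other 8 genes overlapped between the genotypes, with log2 fold changes of -0.17 (Prdx1) to 0.15 (Nqo1). The macrophage markers were lower in Swhtr null than in WT treated slices for 12 of 12 genes (4092 to 10310 CPM in Swhtr null against 9369 to 10930 CPM in WT), with 0 called, and their part in these values was not tested.

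In untreated slices edgeR, DESeq2 and limma called 0 of the 10 genes (0.1% of all genes tested in edgeR), and each tool had 0 of them at an unadjusted p under 0.05 (5.36% of all genes in edgeR). Values were higher in Swhtr null slices for 9 of the 10 (7 in limma, and 8 without normalization factors, where Srxn1 was at -0.005), Nfe2l2 being the exception, with a median log2 fold change of 0.14 over the 10 and 0 over all genes tested. The largest were those of Hmox1, at 0.27 ± 0.22, and Slc7a11, at 0.26 ± 0.20 (SE). For neither did the groups separate, since Hmox1 was at 1406 to 2093 CPM in Swhtr null slices and 1052 to 1850 CPM in WT slices. Without Swhtr null untreated replicate 2 the median was 0.06, with 6 genes higher and 4 lower, and Nqo1 was then at -0.34.

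The last comparison asked whether the response to treatment differed between the genotypes, as the log2 fold change in Swhtr null minus that in WT slices. In edgeR, DESeq2 and limma 0 of the 10 genes were called and 0 had an unadjusted p under 0.05, where edgeR called 0% of all genes tested and had 6.89% of them at an unadjusted p under 0.05. The difference was negative for 9 of the 10 genes (8 without normalization factors, where Nqo1 was at 0.014; median -0.10, against 0.00 over all genes tested), and Gclc, at 0.04 ± 0.13 (SE), was the exception. Prdx1 had the largest, at -0.30 ± 0.22 (SE; adjusted p = 0.77, edgeR). Without Swhtr null treated replicate 2 the median was -0.03, with 6 of the 10 negative, and without Swhtr null untreated replicate 2 it was -0.05, also with 6 negative. With limma's quality weights the median was 0.01, with 5 negative and 5 positive.

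Other genes of the pathway were read in the same fit. Among 12 regulators and partners of NRF2 (such as Keap1, Cul3, Bach1 and the small MAF genes), 0 were called in Swhtr null treated against untreated slices by edgeR, DESeq2 or limma, and 2 of the 12 had an unadjusted p under 0.05 in edgeR, beside 16.5% of all genes tested. Keap1, the adaptor that marks NRF2 for degradation, was picked after its values were seen. It had a log2 fold change of -0.09 ± 0.06 (SE) in Swhtr null slices and 0.00 ± 0.06 in WT slices. Nfe2l1, which encodes a related factor of the endoplasmic reticulum, was at 412.4, 393.4, 395.8 and 405.8 CPM in Swhtr null treated slices, against 362.6, 366.2, 375.0 and 357.1 CPM in Swhtr null untreated slices. The groups did not overlap, as for 7.32% of all genes tested and 11.5% of those above 10 CPM. The log2 fold change of Nfe2l1 was 0.14 ± 0.06 (SE; adjusted p = 0.21, edgeR). Bach1, a repressor that competes with NRF2 for its sites, had -0.20 ± 0.10 (adjusted p = 0.30), Maff, a small MAF partner, -0.32 ± 0.16 (adjusted p = 0.36), and Rbx1, a subunit of the ligase that KEAP1 serves, -0.10 ± 0.06 (adjusted p = 0.44), all with SE and from edgeR. The groups of Rbx1 did not overlap either, at 64.7 to 66.4 CPM in Swhtr null treated slices and 66.9 to 74.8 CPM in Swhtr null untreated slices.

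Among 21 other targets of NRF2, 0 were called in the same comparison by edgeR, DESeq2 or limma, 9 had an unadjusted p under 0.05 in edgeR (16.5% of all genes tested and 26.8% of those above 10 CPM), and 15 were lower and 6 higher, with a median log2 fold change of -0.10 against 0.01 over all genes tested. Ugdh, which makes the sugar donor for glucuronidation and for hyaluronan, passed the adjusted p but not the fold threshold, as 2.18% of all genes tested did on adjusted p alone. It was at 122.2, 123.1, 134.1 and 128.4 CPM in Swhtr null treated slices, against 145.0, 157.4, 168.5 and 162.8 CPM in Swhtr null untreated slices. All treated libraries were below all untreated ones. Groups without overlap made up 7.32% of all genes tested and 11.5% of those above 10 CPM. The log2 fold change of Ugdh was -0.32 ± 0.07 (SE; adjusted p = 0.025, edgeR). In WT slices the log2 fold change of Ugdh was -0.08 ± 0.07 (SE). In Swhtr null slices Blvrb, a biliverdin reductase, had -0.47 ± 0.16 (SE; adjusted p = 0.16, edgeR). Prdx6, a peroxiredoxin that also reduces lipid peroxides, had -0.20 ± 0.07 (SE; adjusted p = 0.15, edgeR). Aox1, an aldehyde oxidase, had 0.55 ± 0.20 (SE; adjusted p = 0.18, edgeR). Without Swhtr null untreated replicate 2, Aox1 was called at 0.80. With libraries of the same number paired within genotype, 7 of the 21 targets passed the adjusted p alone, against 1 without pairing, and 0 were called. Of the 12 regulators and partners 2 passed it in that fit, against 0 without pairing. That fit called 2.47% of all genes tested, against 0.621% without pairing. Its share of all genes at the adjusted p alone was not computed, so these counts do not set the lists apart.

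Of 7 enzymes that supply NADPH, on which both glutathione and thioredoxin reductases depend, 0 were called by edgeR, DESeq2 or limma and 0 had an unadjusted p under 0.05 in edgeR, with 5 lower and 2 higher. Taldo1 of the pentose phosphate pathway and Me1, the cytosolic malic enzyme, had opposite log2 fold changes of -0.34 ± 0.16 and 0.34 ± 0.16 (SE; adjusted p = 0.30 each, edgeR). Pgd, the third enzyme of that pathway, and Idh2, the mitochondrial NADP-dependent isocitrate dehydrogenase, had -0.14 ± 0.11 and -0.10 ± 0.07 (SE). The value of Pgd was 0.01 without Swhtr null treated replicate 2, which held 251.5 CPM against 377.8 to 441.4 CPM in the other 3 treated libraries.

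Among 16 further antioxidant enzymes edgeR called 0, with 7 at an unadjusted p under 0.05 (16.5% of all genes tested and 26.8% of those above 10 CPM). DESeq2 and limma each called 1, Sod3, where they called 1.84% (DESeq2) and 0.897% (limma) of all genes. Gpx4, the glutathione peroxidase that reduces membrane lipid peroxides, was at 197.8, 195.4, 215.7 and 225.0 CPM in Swhtr null treated slices, against 231.0, 241.3, 260.1 and 267.6 CPM in Swhtr null untreated slices. Prdx5, a peroxiredoxin of mitochondria and peroxisomes, was at 149.1, 154.7, 173.3 and 166.0 CPM in Swhtr null treated slices, against 197.9, 219.5, 230.2 and 250.9 CPM in Swhtr null untreated slices. Both had groups without overlap (7.32% of all genes tested and 11.5% of those above 10 CPM) and passed the adjusted p (2.18% of all genes) but not the fold threshold, with log2 fold changes of -0.26 ± 0.06 (SE; adjusted p = 0.035, edgeR) for Gpx4 and -0.48 ± 0.12 (SE; adjusted p = 0.049, edgeR) for Prdx5. In WT slices their log2 fold changes were 0.03 ± 0.06 for Gpx4 and -0.19 ± 0.12 for Prdx5 (SE).

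Sod3, the superoxide dismutase secreted into the extracellular matrix, went the other way. It was at 298.5, 337.3, 228.5 and 294.8 CPM in Swhtr null treated slices, against 170.0, 263.0, 154.3 and 144.4 CPM in Swhtr null untreated slices. Only untreated replicate 2 reached into the range of the treated libraries. The log2 fold change was 0.66 ± 0.20 (SE; adjusted p = 0.11, edgeR), and it was called by DESeq2 at 0.66 (adjusted p = 0.008), by limma at 0.73 (adjusted p = 0.016), and by edgeR with libraries of the same number paired within genotype at 0.69 (adjusted p = 0.015). Without Swhtr null untreated replicate 2 it was called at 0.89. In WT slices its log2 fold change was 0.26 ± 0.20 (SE). Glrx, a glutaredoxin that removes glutathione from proteins, had -0.26 ± 0.11 (SE; adjusted p = 0.23, edgeR) in Swhtr null slices. With libraries of the same number paired within genotype, 6 of the 16 enzymes passed the adjusted p alone, against 2 without pairing. Of the 7 NADPH enzymes 1 passed it in that fit, against 0 without pairing. That fit called 2.47% of all genes tested, against 0.621% without pairing. Its share of all genes at the adjusted p alone was not computed, so these counts do not set the enzymes apart.

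**Figure D4:**
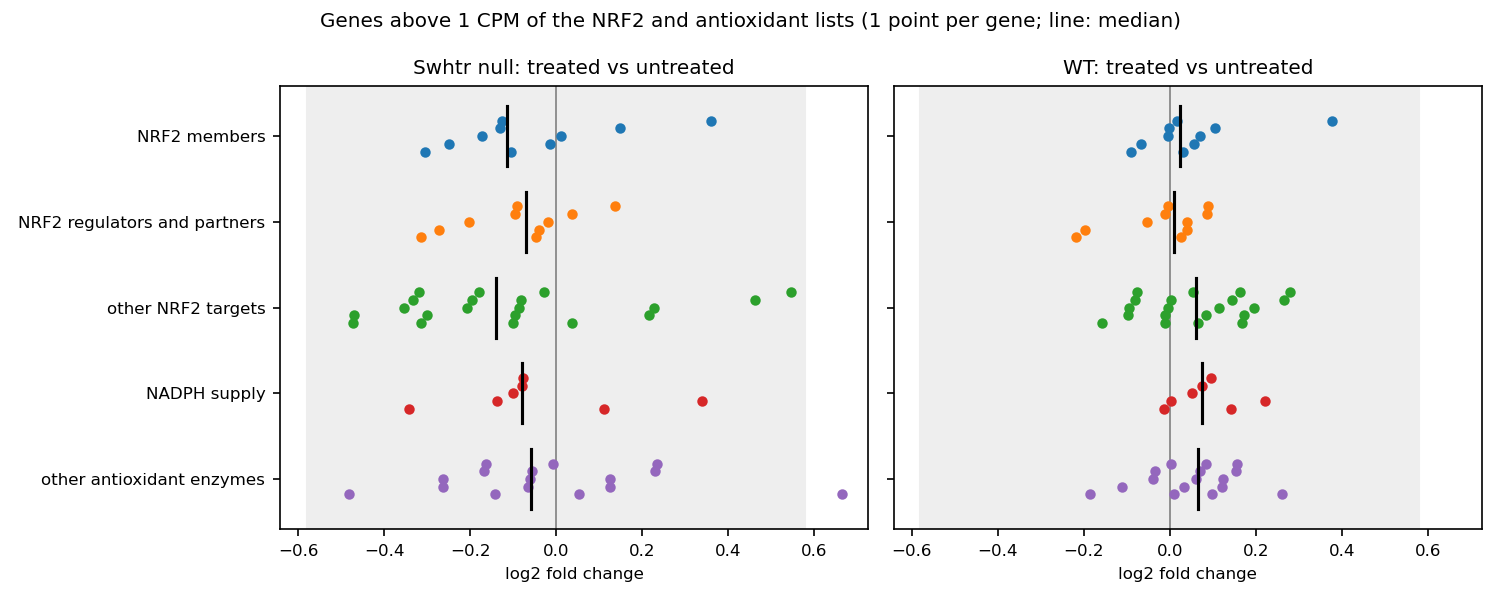
Treated against untreated slices, as log2 fold change (horizontal axis), for the genes above 1 CPM of the 5 lists, 1 point per gene, with the median as a black line and values within 0.58 either way in grey, in Swhtr null (left) and WT slices (right). Outside the band lies only Sod3 in Swhtr null slices, at 0.66, and for the 10 NRF2 genes the medians are -0.115 in Swhtr null and 0.03 in WT slices.

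Over the 56 genes of these 4 lists, edgeR, DESeq2 and limma called 0 in WT treated against untreated slices, with 2, 2 and 6 at an unadjusted p under 0.05 in that order of tools and 4.81% of all genes in edgeR. For the difference in response between the genotypes the 3 tools also called 0, with 5, 7 and 5 at an unadjusted p under 0.05 and 6.89% of all genes in edgeR. The difference was -0.295 ± 0.091 for Gpx4 and -0.239 ± 0.105 for Ugdh (SE; unadjusted p = 0.0041 and 0.034, edgeR). It was -0.297 ± 0.172 for Prdx5 and 0.403 ± 0.277 for Sod3 (SE; unadjusted p = 0.1 and 0.17, edgeR). Their adjusted p was 0.71 to 0.76 (edgeR). After adjustment, the changes of Ugdh, Gpx4, Prdx5 and Sod3 in Swhtr null slices are thus not shown to differ from those in WT slices.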

How the data were processed

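RNA from 16 heart slice cultures was sequenced in 4 groups of 4. The authors aligned paired-end reads with STAR to mm10 and deposited raw counts per Ensembl gene, with no filter. Whether strand was used in counting is not given in the sources used here, and the labels and the methods name different library kits. Replicate numbers and groups came from the labels, and which libraries share a mouse is unknown, so p-values measure the spread between libraries. Tests used edgeR 4.0.16 under R 4.3.3 (genes holding 10 or more counts in all, TMM, 4 group means, 12 residual degrees of freedom, robust quasi-likelihood test, Benjamini-Hochberg adjustment over 24971 genes). Alternatives used DESeq2 1.42.0, limma 3.58.1 with quality weights, other scalings and filters, only the libraries compared, a block for the replicate number, and each library left out in turn. The procedure was tested on simulated data.

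Levels are CPM after TMM scaling, and CPM per kb divides them by the exon length in GENCODE M21 (GRCm38), where 55227 of the 55487 identifiers were found. Gclm shares 4.7% of its exon bases with other genes. No pair of libraries agreed within sampling noise (lowest chi-square per degree of freedom 6.11). Same-numbered treated and untreated libraries had r across genes of 0.148, 0.591, 0.259 and 0.399 in Swhtr null slices. In WT slices these were -0.108, -0.084, 0.165 and 0.319. Between libraries of different number r was -0.479 to 0.334 in Swhtr null and -0.322 to 0.429 in WT slices. The numbers were taken to pair the Swhtr null libraries, and the block within genotype also paired the WT libraries by number. These ranges overlap, however, and the values do not settle the pairing in either genotype. The pairing of the Swhtr null libraries comes from the values, and no label states a pairing in either genotype.

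The members and lists were chosen with earlier results of these data known. All 10 members are named, and of each other list the genes called and up to 4 with the smallest p in Swhtr null treated against untreated slices above 1 CPM. Nnt was left out because its symbol belongs to 2 identifiers. Promoter windows were taken from RefSeq.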

Additional observations from a re-analysis of the deposited data

Results flagged for a closer look

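Of the 40 groups of 4 libraries examined (10 genes in 4 groups), 2 held a library far from the other 3, by the gap to its neighbour relative to the whole range, and chance gives about 1 in 20. Nqo1 was at 21.5 CPM in Swhtr null untreated replicate 2, against 7.72 to 8.05 CPM in the other 3 libraries. Nfe2l2 was at 174.7 CPM in WT untreated replicate 2, against 189.4 to 191.2 CPM in the other 3 libraries.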

How the results depend on the processing

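No gene of the 10 was called in any comparison under DESeq2, limma, DESeq2's size factors, no normalization factors, either other filter, a replicate block added for the number or no fold threshold. The same held with only the libraries compared, which was run for all comparisons but the difference in response, and with the block within genotype, which was run for the treatment in each genotype and the difference in response. Leaving out 1 library gave 0 to 1 members called in Swhtr null treated against untreated slices (Nqo1, without Swhtr null untreated replicate 2) and 0 to 0 in the other comparisons. The genes called in all in that comparison ranged between 6 (only the libraries compared) and 616 (block within genotype), and between 22 and 575 without 1 library. The block within genotype called 19 genes in all in WT slices and 52 for the difference in response, against 0 without it. Both counts rest on pairing the WT libraries by number, which the values do not settle.

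Directions turned only for values that were not called, and the cause was not tested. In Swhtr null treated against untreated slices, the log2 fold change of Txnrd1 was 0.094 in limma and 0.015 with no normalization factors, and that of Srxn1 was -0.008 with the replicate block within genotype. In WT treated against untreated slices, Hmox1 was at 0.009 with the replicate block and 0.016 with the block within genotype, and Prdx1 at 0.01 and 0.009 in the same 2 fits. Between the genotypes in treated slices, limma gave 0.054 for Srxn1 and 0.025 for Gsr. In untreated slices it gave -0.103 for Nqo1 and -0.019 for Srxn1, which was at -0.005 with no normalization factors. For the difference in response, limma gave 0.337 for Nqo1, 0.021 for Txnrd1, 0.073 for Srxn1 and 0.092 for Slc7a11, and Nqo1 was at 0.014 with no normalization factors, 0.109 with the replicate block and 0.09 with the block within genotype.

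Leaving out 1 library turned the sign of these log2 fold changes, given as lowest and highest values. In Swhtr null treated against untreated slices they were -0.09 to 0.09 for Txnrd1, -0.089 to 0.141 for Srxn1, -0.395 to 0.015 for Slc7a11 and -0.234 to 0.009 for Pgd. In WT treated against untreated slices they were -0.126 to 0.145 for Hmox1, -0.024 to 0.105 for Gclm, -0.003 to 0.126 for Srxn1, -0.084 to 0.093 for Prdx1, -0.214 to 0.001 for Slc7a11 and -0.021 to 0.076 for Gsr. Between the genotypes in treated slices they were -0.02 to 0.225 for Hmox1, -0.042 to 0.14 for Gclm, -0.068 to 0.109 for Txnrd1, -0.131 to 0.096 for Srxn1 and -0.087 to 0.056 for Gsr. In untreated slices they were -0.339 to 0.393 for Nqo1, -0.046 to 0.08 for Srxn1 and -0.004 to 0.405 for Slc7a11. For the difference in response they were -0.24 to 0.491 for Nqo1, -0.046 to 0.126 for Gclc, -0.159 to 0.02 for Txnrd1, -0.144 to 0.085 for Srxn1 and -0.306 to 0.104 for Slc7a11.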
